A study of Homo sapiens with 15 samples.

Results

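The regions described here carry H3K4ox in both libraries of the series but hold no peak of H2A.Z and none of RUVBL2. They were chosen by overlap of the deposited peak lists. Peaks of the 2 H3K4ox lists that shared at least 1 bp were merged, and merged regions with peaks of both lists are called shared regions. Shared regions that met no peak of H2A.Z and no peak of RUVBL2 are called partner-free here, and the other shared regions partner-bearing. Of 317583 merged regions 162645 were shared, and 93411 of these were partner-free, which is 57.4% (95% Wilson interval 57.2 to 57.7, counting error only). Presence in both H3K4ox lists and the absence of the other peaks follow from this choice and are given as a description. A region without a listed peak may still hold H2A.Z or RUVBL2 below the limit of the list.

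Chromatin of MDA-MB-231, a human breast cancer cell line of the triple-negative type, was immunoprecipitated with a handmade antibody to H3K4ox (2 libraries) or with commercial antibodies to H2A.Z (1 library) and RUVBL2 (1 library), and sequenced. No treatment or knockdown is given in the labels for these 4 libraries, so no condition is compared. The other 11 of the 15 samples, which are 1 input, 8 RNA-seq and 2 ATAC-seq libraries, were not analysed here. The lists give peaks without reads, which leaves the depth unknown, and neither H2A.Z nor RUVBL2 had a replicate. Nothing in the labels says that the H3K4ox libraries came from separate cultures, so the spread between them may be technical. They were not copies of each other, as 0 H3K4ox peaks matched in both borders between the libraries.

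H3K4ox is an oxidised form of lysine 4 of histone H3, left when the lysyl oxidase LOXL2 removes the amino group of that residue, and is known from compact chromatin. H2A.Z is a variant of histone H2A that is best known from nucleosomes at gene starts and regulatory elements. RUVBL2 is an ATPase of the complexes, such as SRCAP, INO80 and TIP60, that place or move H2A.Z. Partner-free regions are thus the H3K4ox sites at which neither the variant nor this component of its exchange machinery was listed.

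Partner-free regions were the largest class of shared regions by number but covered less of the genome than the partner-bearing ones. They spanned 98.02 Mb, 42.4% of the length of all shared regions, against 133.0 Mb in partner-bearing regions. The rest of the shared regions held RUVBL2 without H2A.Z (52441 regions, 32.2%), both proteins (10100 regions, 6.21%) or H2A.Z without RUVBL2 (6693 regions, 4.12%).

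The usual partner-free region was narrow and of low score. Its width had a median of 925 bp, with 80% of regions between 688 and 1567 bp and extremes of 342 and 11098 bp. Regions with RUVBL2 without H2A.Z had a median of 1551 bp, those with H2A.Z without RUVBL2 1031 bp and those with both 1996 bp. A wide region meets other peaks more often by its length, so a low width is partly built into the choice. Within partner-free regions the H3K4ox peaks had median widths of 835 bp in replicate 1 and 811 bp in replicate 2, a mean of 823 ± 17.0 bp (SD, n = 2), against 1339 ± 36.8 bp (SD, n = 2) in partner-bearing regions. Both medians of a class come from the same regions with the same class labels. This SD therefore does not measure how far the difference between the classes would vary.

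Scores followed the same order. The score is a value per peak from the authors' caller, in a unit not given in the sources, and starts at 50 in each of the 4 lists. In partner-free regions the best peak had a median score of 86.2 in replicate 1 and 83.8 in replicate 2, a mean of 85.0 ± 1.7 (SD, n = 2). In partner-bearing regions the medians were 154.6 and 147.4, a mean of 151.0 ± 5.1 (SD, n = 2). Regions with H2A.Z alone came closest to the partner-free ones, with 95.5 in replicate 1 and 91.7 in replicate 2. Low scores did not hold throughout, since the partner-free class also contained scores of 3158 in replicate 1 and 3204 in replicate 2, of which that in replicate 2 was the highest of its list.

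**Figure D1:**
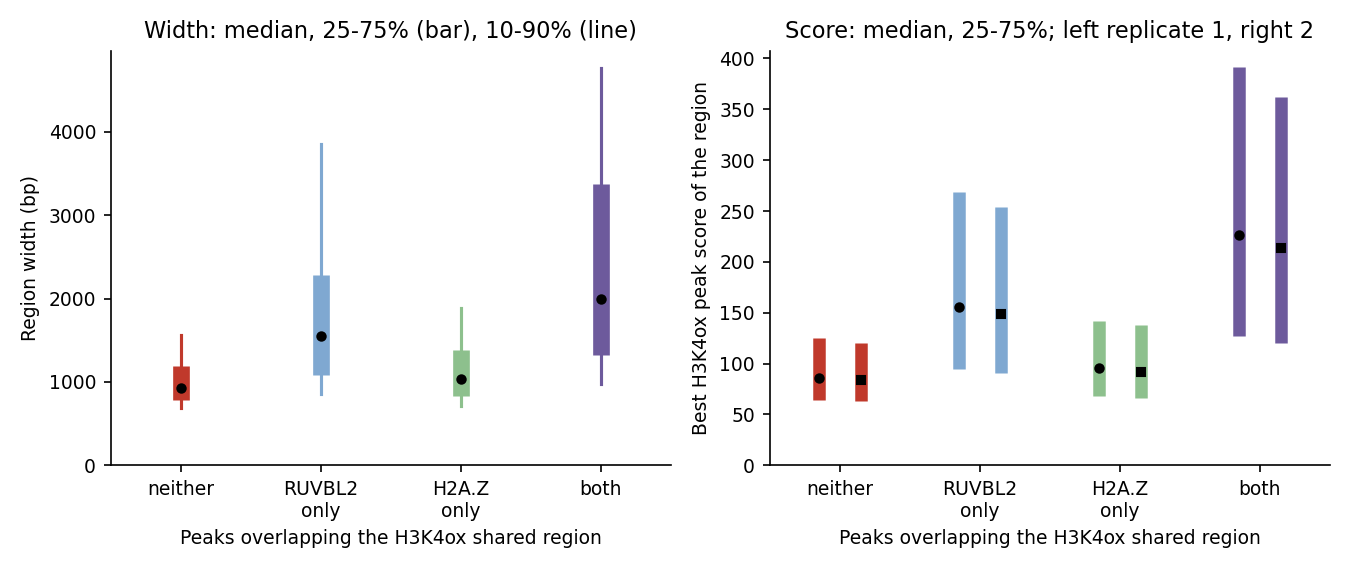
Width of H3K4ox shared regions in bp (left) and score of their best H3K4ox peak in each replicate (right), by the peaks that the region overlaps. Points are medians, bars run from the 25% to the 75% quantile and thin lines from the 10% to the 90% quantile; regions with neither peak have medians of 925 bp and of scores 86.2 and 83.8.

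The H3K4ox libraries placed the partner-free regions about as closely as the others. Their ranks were less alike than in partner-bearing regions over all widths. Against regions with RUVBL2 without H2A.Z this did not hold in 3 of 4 width classes. In 96.6% of partner-free regions each library had exactly 1 peak, against 82.6% of partner-bearing regions. Among the latter, regions with H2A.Z without RUVBL2 came close, with 93.5%. In these simple regions a median of 81.5% of the region lay in both peaks, against 81.9% in partner-bearing regions. The log2 ratio of the score in replicate 1 to that in replicate 2 had a median of 0.03 and an SD of 0.55 across partner-free regions, and a median of 0.05 and an SD of 0.58 across partner-bearing regions. The Spearman correlation of the 2 scores was 0.54 over partner-free and 0.80 over partner-bearing regions. Over regions with H2A.Z without RUVBL2 it was 0.58, near the partner-free value. Regions are not independent replicates, and partner-bearing scores span a wider range, so the coefficients are descriptions only. Against regions with RUVBL2 without H2A.Z, the correlation was higher without partners in 3 of 4 width classes from 800 to under 3000 bp. Narrower and wider regions were not compared in this way. Among regions from 800 to under 1000 bp it was 0.34 without partners and 0.26 with RUVBL2, and among those from 2000 to under 3000 bp 0.56 and 0.53. Among regions from 1000 to under 1500 bp the correlation was 0.48 without partners (26260 regions) and 0.43 with RUVBL2 without H2A.Z (14601 regions), and among those from 1500 to under 2000 bp it was 0.50 without partners (7829 regions) and 0.54 with RUVBL2 without H2A.Z (10574 regions).

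The share of partner-free regions fell with the H3K4ox score, and rose again among the best-scoring sites. Scores were converted to percentiles within each list and averaged over the 2 replicates. Of the shared regions up to percentile 10, 83.7% were partner-free, set against 57.4% of all shared regions. Between percentiles 90 and 95 it was 18.7%, and between 98 and 99 it was 14.7% (308 of 2094). It was 16.9% between percentiles 99 and 99.5, 38.5% between percentiles 99.5 and 99.9 (247 of 642) and 58.1% above 99.9 (132 of 227). Ranking by each replicate alone also gave a minimum below the top and a high share above percentile 99.9, but the share turned upward later. It was 13.5% ± 1.6 between percentiles 98 and 99, 11.9% ± 0.2 between 99 and 99.5, 26.3% ± 1.1 between 99.5 and 99.9, and 57.5% ± 0.3 above 99.9 (SD, n = 2 each). Both rankings use the same shared regions, so they are not independent of each other.

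Width separated the regions at the top of the list. Among the 1802 shared regions with a mean percentile above 99, called the best-scoring 1% here, 537 were partner-free, which is 29.8%. Of the 576 that were narrower than 3 kb, 463 (80.4%) were partner-free, and of the 1226 wider ones 74 (6.04%). With score and width taken from a single replicate, the shares were 79.0% ± 0.6 for narrow and 3.71% ± 0.12 for wide regions (SD, n = 2 each). The partner-free regions of this set had a median width of 1995 bp, against 4904 bp for the partner-bearing ones. This split by width and score was chosen after the lists had been examined, as was the zone of 5 Mb used next.

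In each of the 3 width classes from 1000 to 3000 bp the partner-free share was lowest at middle to high scores and high again at the top. For regions from 1000 to under 1500 bp the partner-free share was 64.1% in the lower 50% of scores, 49.0% between percentiles 80 and 90, 73.9% between 90 and 95, and 91.0% between 95 and 99 (621 regions). For those from 1500 to under 2000 bp it was 54.5% in the lower 50%, 19.3% between percentiles 90 and 95, 64.7% between 95 and 99 and 85.6% above 99 (201 regions). For those from 2000 to under 3000 bp it stayed at 13.2% between percentiles 95 and 99 and reached 76.4% above 99 (250 regions). Where the share turned upward depended on the view. With score and peak width from replicate 1 or replicate 2 alone it was 55.1% and 48.3% for 1000 to under 1500 bp between percentiles 90 and 95, and 42.1% and 35.1% for 1500 to under 2000 bp between 95 and 99. Above percentile 99 the single-replicate shares were 85.4% and 80.6% for 1500 to under 2000 bp and 73.6% and 75.6% for 2000 to under 3000 bp. Of the 642 regions from 3000 to under 5000 bp above percentile 99, 9.35% were partner-free, and the single-replicate shares were 4.16% and 4.05%.

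**Figure D2:**
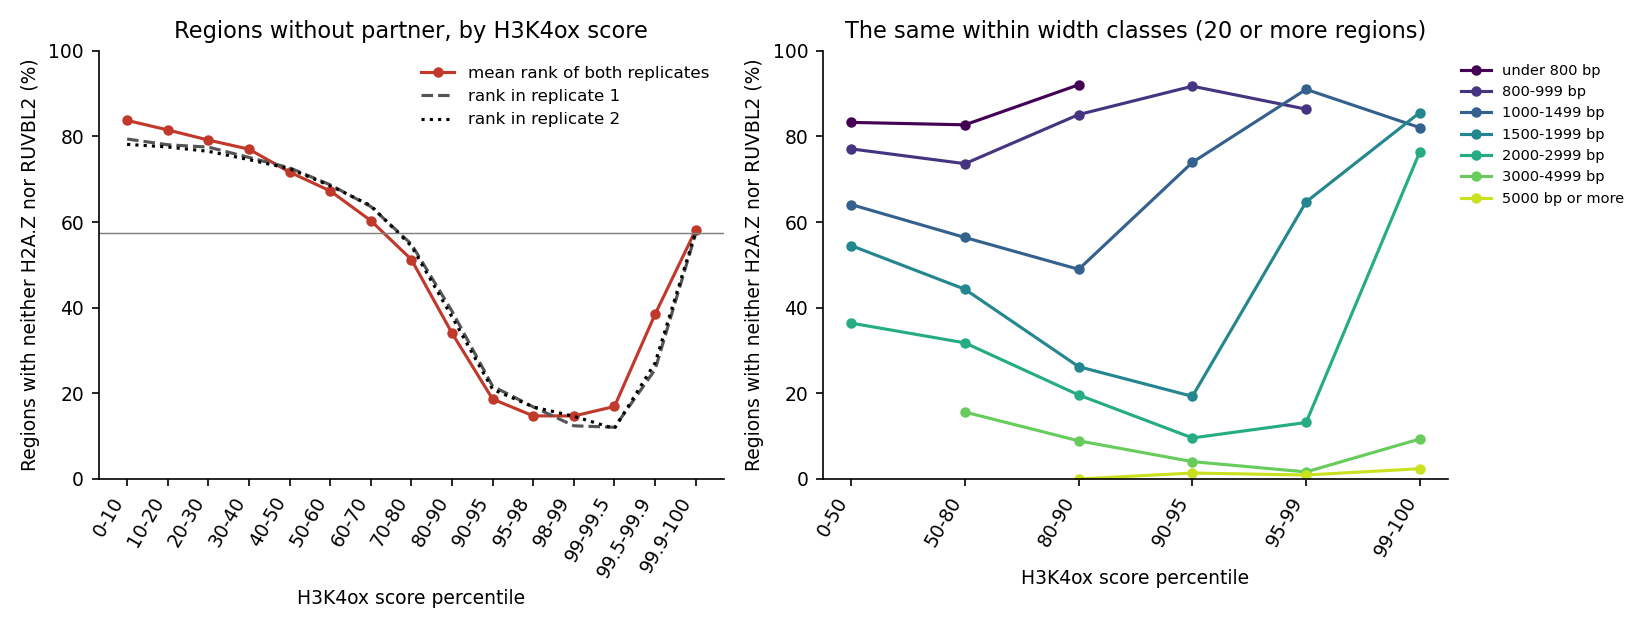
Share of H3K4ox shared regions with neither an H2A.Z nor a RUVBL2 peak (%), by percentile of the H3K4ox score. On the left the ranks are the mean of both replicates or those of 1 replicate, and the grey line is the 57.4% of all shared regions; on the right the mean ranks are shown within width classes, for points of 20 or more regions, and the share is high again at the top scores in regions from 1000 to under 3000 bp.

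The best-scoring partner-free regions lay near chromosome ends more often than the partner-bearing ones of such scores, although most lay elsewhere. Of the 537 in the best-scoring 1%, 219 (40.8%) lay within 5 Mb of the outermost peak of their chromosome, against 117 of 1265 partner-bearing regions (9.25%) with such scores. The outermost peak stands for the chromosome end here and in what follows. Where the lists hold no peaks at the end of a sequence, such a zone lies further in. With the ranking of 1 replicate the shares were 40.3% ± 1.0 for partner-free and 7.49% ± 0.08 for partner-bearing regions (SD, n = 2 each). Over all scores the zones held 10586 of 93411 partner-free regions (11.3%) and 5242 of 69234 partner-bearing ones (7.57%). Of the best-scoring regions under 3 kb, 191 of 463 partner-free (41.3%) and 36 of 113 partner-bearing ones (31.9%) lay in the end zones. Of those of 3 kb or more, 28 of 74 partner-free (37.8%) and 81 of 1152 partner-bearing ones (7.03%) did. For wide partner-free regions the share was 31.9% by replicate 1 and 41.4% by replicate 2. The classes thus stood closer together among narrow regions than among wide ones.

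High scores were most frequent close to the ends. Within 1 Mb of an end 2.47% of partner-free regions were among the best-scoring 1%, and between 1 and 2 Mb 2.73% were. The share was 1.71% between 2 and 5 Mb and 0.725% between 5 and 10 Mb, and 0.194% beyond 50 Mb. For partner-bearing regions it was 3.27% within 1 Mb, 2.98% between 1 and 2 Mb, 1.51% between 2 and 5 Mb and 1.97% beyond 50 Mb. Both classes thus had their highest shares within 2 Mb of an end. Beyond 5 Mb the partner-free share kept falling, while the partner-bearing share did not. The share of partner-free regions itself, at all scores, was 62.7% within 1 Mb, 68.6% between 2 and 5 Mb and 50.9% beyond 50 Mb. The widths of the regions in these zones, at the partner-free share of each width class in all shared regions, would give 58.0%, 60.7% and 54.6%.

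**Figure D3:**
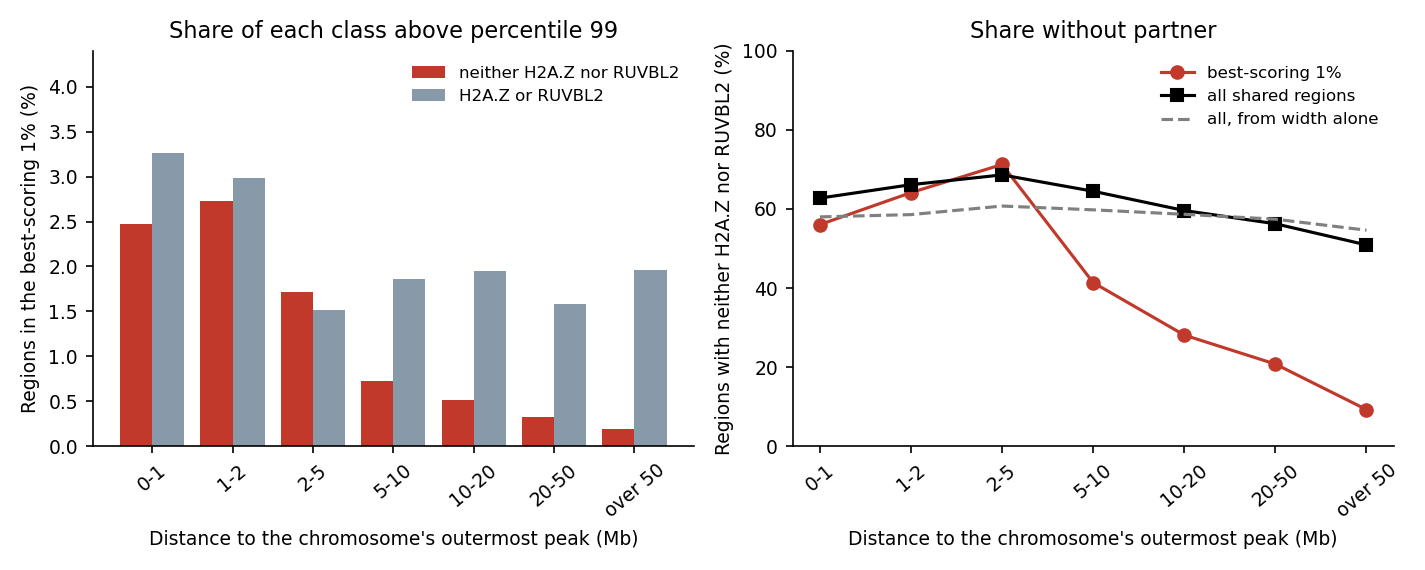
H3K4ox shared regions by distance to the outermost peak of their chromosome (Mb). On the left, bars give the share of regions with neither peak and of regions with H2A.Z or RUVBL2 that have a mean score percentile above 99 (%), and the first is down to 0.194% beyond 50 Mb; on the right, lines give the share with neither peak (%) among the best-scoring 1%, among all, and as the widths alone would give it.

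Of the 10 best-scoring partner-free regions, 9 lay within 5 Mb of a chromosome end, 6 were narrower than 3 kb and 0 lay within 1 Mb of a peak-free stretch of at least 1 Mb. Positions are given in hg19, counted from 1, without gene names, since an annotation of hg19 was not used here. The first was on chromosome 11 at 1092113 to 1094044, 1932 bp wide, with a score of 3158 in replicate 1 and 3100 in replicate 2. Its nearest H2A.Z peak was 45.5 kb away and its nearest RUVBL2 peak 33.0 kb. The second, on chromosome 15 at 65243218 to 65247877, scored 3100 in replicate 1 and 3182 in replicate 2 and was the exception in position, 37.3 Mb from an end.

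Chromosome 5 held 2 of the 10. The region at 180472560 to 180473812 was the narrowest of the 10, with 1253 bp, and had a score of 3100 in both replicates at 0.43 Mb from the end. The region at 2145183 to 2148094 scored 2976 in replicate 1 and 3204 in replicate 2. Several scores of exactly 3100 occur, and ties between them were ordered by width. The same value is the highest score of the H2A.Z and RUVBL2 lists. It may be a set value and not a measured one, so ranks among the highest scores are uncertain.

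The remaining regions of the 10 had scores in replicate 1 from 2474 to 3100 and in replicate 2 from 2448 to 3100. On chromosome 7 the region at 155119863 to 155121970 scored 3100 in both replicates, 4.001 Mb from the end. On chromosome 2 the region at 1598846 to 1602080 scored 3100 in replicate 1 and 2884 in replicate 2. On chromosome 22 the region at 50773249 to 50779519, 6271 bp wide, scored 3094 in replicate 1 and 2829 in replicate 2. These 3 were thus close in score between the libraries, but the equal scores of 3100 on chromosome 7 need not mean equal signal.

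The last 3 of the 10 differed in how isolated they were. On chromosome 12 the region at 132811490 to 132819620 (8131 bp, scores 2585 in replicate 1 and 2664 in replicate 2) had its nearest H2A.Z peak 377.3 kb and its nearest RUVBL2 peak 105.2 kb away. On chromosome 1 the region at 1529994 to 1532520 (scores 2539 and 2651 in replicates 1 and 2) lay only 2.86 kb from an H2A.Z peak and 1.60 kb from a RUVBL2 peak. On chromosome 3 the region at 194829909 to 194832149 scored 2474 in replicate 1 and 2448 in replicate 2, with RUVBL2 at 9.27 kb. A high H3K4ox score without a partner was therefore found both beside partner peaks and far from them.

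The 5 widest partner-free regions included that on chromosome 12 and 4 others. The widest, on chromosome 4 at 49322911 to 49334008 (11098 bp), scored 1934 in replicate 1 and 366 in replicate 2 and had a peak-free stretch of more than 1 Mb less than 1 Mb away. On chromosome 3 the region at 195505597 to 195515798 (10202 bp) scored 673.6 in replicate 1 and 674.0 in replicate 2, and the one at 197825607 to 197833477 (7871 bp) scored 954 and 733.5. On chromosome 5 the region at 1041001 to 1049170 (8170 bp) scored 3100 in replicate 1 and 2159 in replicate 2. Replicates thus parted most in the region on chromosome 4.

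A peak of H2A.Z or RUVBL2 lay within 10 kb of most partner-free regions. No distance expected from the number of listed peaks was computed, so these distances cannot be called short or long. The nearest RUVBL2 peak was at a median of 7.36 kb, with quartiles of 2.49 and 19.3 kb, and the nearest H2A.Z peak at a median of 27.2 kb, with quartiles of 9.09 and 70.3 kb. The RUVBL2 list holds 109607 peaks and the H2A.Z list 38584, so the distances to the 2 antibodies are not comparable as such. RUVBL2 was the nearer in 79.5% of regions. A peak of either was within 1 kb of 13328 partner-free regions (14.3%) and within 10 kb of 59663 (63.9%), and 1214 (1.30%) had none within 100 kb. With the upper 50% of the H2A.Z and RUVBL2 lists by score the medians were 16.9 kb to RUVBL2 and 52.4 kb to H2A.Z, so the distances follow the length of those lists. The median distance to H2A.Z was 27173 bp for partner-free regions and 23460 bp for regions with RUVBL2 without H2A.Z. The median distance to RUVBL2 was 7361 bp for partner-free regions and 4638 bp for regions with H2A.Z without RUVBL2.

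At equal width that order depended on the width. Among regions from 800 to under 1000 bp the median distance to H2A.Z was 28376 bp without partners and 21942 bp with RUVBL2 without H2A.Z. Among regions from 2000 to under 3000 bp it was 16767 bp without partners and 22661 bp with RUVBL2 without H2A.Z. Distances also varied with the score among the partner-free regions themselves, divided into 10 groups of equal size by score. The lowest group lay at a median of 8.89 kb from RUVBL2 and 32.0 kb from H2A.Z, group 9 at 5.76 and 22.6 kb, and the highest group at 7.19 and 26.1 kb. The best-scoring 1% were farther out, at 14.3 kb from RUVBL2 and 55.1 kb from H2A.Z.

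At the border of the choice, regions on either side were alike. The 1066 partner-free regions with a peak of H2A.Z or RUVBL2 less than 100 bp away had a median width of 1052 bp and median scores of 94.7 in replicate 1 and 93.9 in replicate 2. The 707 partner-bearing regions whose longest overlap was at most 100 bp had a median width of 1024 bp and scores of 95.7 and 92.3. Most partner-bearing regions were far from this border, with a median longest overlap of 921 bp.

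Positions around partner-free regions lay in partner peaks more often than positions of the whole span between the outermost peaks of the chromosomes. That span includes 22 stretches of at least 1 Mb without any listed peak, so it is not a like base for positions beside listed peaks. At 1 kb from their edges 5.31% of positions lay in a RUVBL2 peak, at 10 kb 5.96% and at 200 kb 5.66%, against 4.07% of the span between the outermost peaks. For H2A.Z the values were 1.56%, 1.85% and 1.602%, against 1.16% of the span. Around regions with both proteins the RUVBL2 values were 14.6% at 1 kb and 9.58% at 200 kb, and the H2A.Z values 8.22% and 3.03%. Partner peaks thus thinned out with distance from the regions that held both and stayed at nearly the same level around those that held neither. A near-level course was not particular to partner-free regions. The H2A.Z values around regions with RUVBL2 without H2A.Z were 2.24% at 1 kb and 2.03% at 200 kb. The RUVBL2 values around regions with H2A.Z without RUVBL2 were 8.13% and 7.10%. At both distances these were above the values around partner-free regions. Distances under 1 kb are not compared, since the choice itself keeps partner peaks away from the edges.

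**Figure D4:**
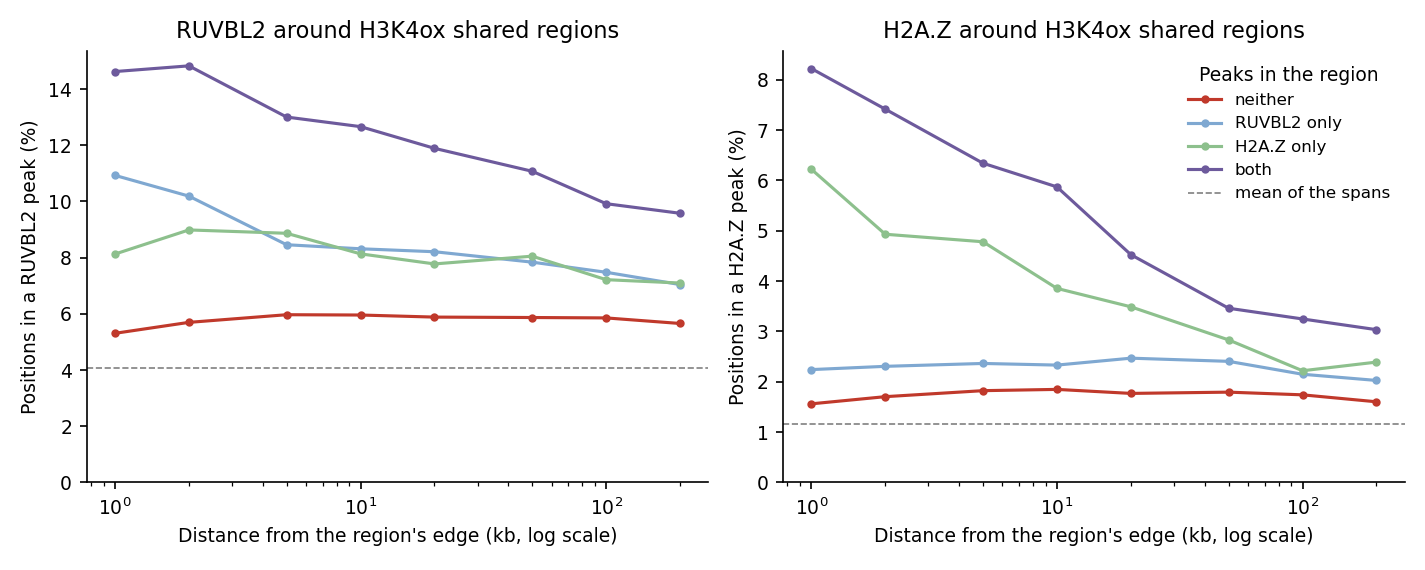
Share of positions that lie in a RUVBL2 peak (left) or an H2A.Z peak (right), in %, at distances from 1 to 200 kb (log scale) from the edges of H3K4ox shared regions, by the peaks that the region holds. Around regions with neither peak the RUVBL2 values stay between 5.31% and 5.97%; the dashed line is the share of the chromosome spans that the list covers.

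The share of partner-free regions differed between chromosomes by up to 3.44-fold over chromosomes 1 to 22 and X, although 17 of the 23 lay between 50% and 65%. Chromosome 22 was highest with 79.0% of its 1975 shared regions (95% Wilson interval 77.1 to 80.7), followed by chromosome 15 with 76.6% of 6303 and chromosome 16 with 74.1% of 3635. Chromosome X was lowest with 22.9% of 2702 (21.4 to 24.6), then chromosome 6 with 40.7% of 7228 and chromosome 4 with 50.2% of 7936. The H3K4ox lists taken separately, with all their peaks, gave these 6 chromosomes in the same order, with a smaller contrast. The share of peaks without a partner was 84.1% ± 0.3 on chromosome 22, 81.7% ± 0.4 on 15, 81.1% ± 0.4 on 16, 58.8% ± 0.7 on 4, 49.7% ± 0.6 on 6 and 40.7% ± 0.2 on X (SD, n = 2 each).

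At the partner-free share of each width class in all shared regions, the widths on these chromosomes would give 63.0% on chromosome 22, 63.2% on 15, 61.4% on 16, 55.2% on 4, 51.9% on 6 and 43.4% on X. The contrast between highest and lowest was smaller, 2.06-fold to 2.08-fold, when all peaks of 1 H3K4ox list were used, and 5.67-fold in the upper 50% of the H3K4ox lists by score. Densities of the other peaks also differed between these chromosomes, and their part in the shares was not tested. Chromosome 22 held 21.98 RUVBL2 and 7.36 H2A.Z peaks per Mb beside 56.2 shared regions per Mb, while chromosome 6 held 46.6 RUVBL2 and 19.4 H2A.Z peaks beside 42.3 shared regions. On chromosome X 69.0% of shared regions held RUVBL2 without H2A.Z and 0.63% H2A.Z without RUVBL2, while on chromosome 22 these shares were 16.5% and 3.14%. No spread can be given for the densities, with 1 library of each protein.

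**Figure D5:**
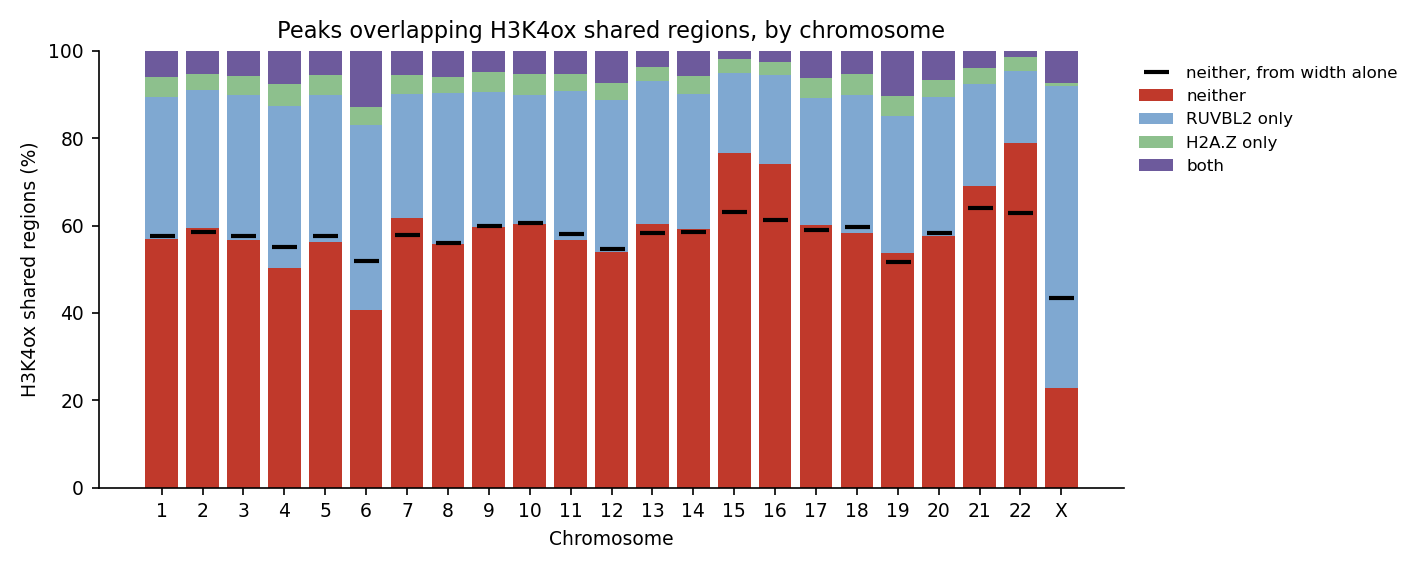
Peaks overlapping H3K4ox shared regions on each chromosome, as % of the chromosome's shared regions, without chromosome Y. The lowest part of each bar is the share with neither H2A.Z nor RUVBL2, highest on chromosome 22 (79.0%) and lowest on X (22.9%), and the black mark is that share as the widths of the regions alone would give it.

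Per unit of length partner-free regions were densest on chromosome 19, with 90.4 per Mb, then chromosome 17 with 74.9, chromosome 20 with 61.1 and chromosome 15 with 58.6, against 31.6 per Mb over chromosomes 1 to 22 and X. Chromosome X had 3.998 per Mb and chromosome 13 14.2. Chromosome 19 was thus rich in partner-free regions while their share there was only 53.7%, and chromosome 15 was rich by both measures. On chromosome 19 they were also wider and higher in score than in the whole class, with a median of 1040 bp and scores of 104.3 in replicate 1 and 99.8 in replicate 2, and nearer to the other peaks, at 3.39 kb from RUVBL2 and 12.2 kb from H2A.Z. Chromosome 13 had the lowest median width, 874 bp.

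Neighbouring shared regions tended to be of the same kind. After a partner-free region the next shared region on the chromosome was partner-free in 64.4% of cases, and after a partner-bearing region in 48.0%. Of all shared regions 57.4% were partner-free. Shares also differed between chromosomes, and the part of this in the likeness of neighbours was not tested. Uninterrupted rows of partner-free regions numbered 33272, with a median of 2 regions, and 133 of them had 20 or more regions (3549 regions in all, 3.799% of the partner-free class). No row length expected from the partner-free share was computed. The longest row lay on chromosome 22, where 79.0% of shared regions were partner-free. It had 108 regions and ran over 2.53 Mb, from 25777832 to 28306583. Its median scores were 90.7 in replicate 1 and 81.1 in replicate 2 and its median width 891 bp, close to those of the class. Inside that stretch lay 11 RUVBL2 and 5 H2A.Z peaks, each outside the shared regions, beside 192 H3K4ox peaks of replicate 1 and 188 of replicate 2.

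The other 4 of the 5 longest rows were shorter. Chromosome 19 had 48 regions from 5186440 to 5671464, within 485.0 kb, and chromosome 22 had 2 further rows, of 47 regions from 47826680 to 49353224 and of 46 regions from 37002435 to 37910262. Chromosome 4 had 44 regions from 3343091 to 3930929. Its row stood out in score, with medians of 162.6 in replicate 1 and 156.2 in replicate 2. On chromosome 22 the row of 47 regions held 2 RUVBL2 peaks and 0 H2A.Z peaks over 1.53 Mb.

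Windows of 1 Mb ranged widely in make-up. Among the 2447 windows with at least 20 shared regions the share of partner-free ones had a median of 57.1%, quartiles of 44.8% and 68.9%, and reached 90% in 30 windows. The most partner-free regions, 168, lay in the window from 5 to 6 Mb of chromosome 7 (64.9% of 259 shared regions) and in that from 41 to 42 Mb of chromosome 19 (68.0% of 247). Next came 49 to 50 Mb of chromosome 19 with 166 regions (57.8%), 41 to 42 Mb of chromosome 15 with 161 (72.5%) and 117 to 118 Mb of chromosome 12 with 158 (72.8%). These windows held 67 to 126 RUVBL2 peaks and 10 to 53 H2A.Z peaks each. The chromosomes they lie on held from 24.8 to 100.2 RUVBL2 peaks and from 7.33 to 36.0 H2A.Z peaks per Mb.

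The partner-free regions farthest from any H2A.Z or RUVBL2 peak all lay near the starts of chromosomes X and Y. The first, on chromosome X at 487715 to 489690, scored 949.4 in replicate 1 and 677.6 in replicate 2 and was 907.0 kb from the nearest RUVBL2 peak. On chromosome Y the region at 437672 to 439712 scored 848.2 in replicate 1 and 921.0 in replicate 2 and was 898.2 kb from the nearest H2A.Z peak. The other 3 were on chromosome Y at 538646 to 540401 and on chromosome X at 657190 to 657913 and 685429 to 686252. As background, X and Y carry the same sequence at these ends, so regions listed on both are not separate observations. How reads that match several places were treated is not known, so placement on X or Y is uncertain there. The partner-free class includes 117 regions listed on chromosome Y, of 375 shared regions on it.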

How the data were processed

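Peak lists of 4 ChIP-seq libraries of MDA-MB-231 cells were used, grouped by antibody. The authors deposited 1 list per library, holding a score per peak whose unit is not given; the peaks carry MACS names, and no caller version or threshold is stated, per the file headers and rows. Per the submitters' processing notes the build was hg19 and the tools included Bowtie and TopHat. All 4 headers use the term multilocus without defining it, and how reads that match several places were treated is not known. The headers of the H3K4ox lists name an input and those of the other lists do not. If no input was used there, H2A.Z and RUVBL2 peaks may be more or fewer, which would move regions between classes.

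Scripts ran in Python 3.11.15 with pandas 2.3.3, numpy 2.4.6, scipy 1.17.1 and, for plots, matplotlib 3.10.9. Overlap meant at least 1 bp. The score of a region was that of its best peak in each list, and percentiles were taken within a list. The interval code was checked on simulated lists, with 0 disagreements in 745 regions. Chromosome ends were the outermost peaks of any list, which may lie away from the ends of the sequence. No statistical test was made: the design has no conditions, and H2A.Z and RUVBL2 have 1 library each. Wilson intervals treat regions as independent.

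The partner-free regions, the comparisons and the alternatives were chosen with earlier results of these data known. Named regions were the 10 best by score, the 5 widest, the 5 farthest from a partner, the 5 longest rows, the 5 fullest windows, and the 3 highest and 3 lowest chromosomes. Sequence content, promoters, gene lists and cell type markers were not examined, as no genome or annotation of hg19 was used. Alternatives are in the closing section.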

Additional observations from a re-analysis of the deposited data

How the results depend on the processing

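In all, 9 results were recomputed under up to 8 alternatives (69 values), of which 23 were called unmoved and 46 moved. The yardstick was the SD between the 2 values with 1 H3K4ox replicate left out (for the correlation, equality to 2 decimals). This SD is not the spread of the main values, so these counts do not measure how stable the results are. Of the alternatives, leaving out the 1 Mb next to peak-free stretches and chromosome ends, and every alternative for the 2 results on the best-scoring 1%, were added after seeing the data. With 1 replicate left out, all peaks of the other H3K4ox list were used. Presence in both lists was then not required, so those values describe single peaks and not shared regions. 

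The share of partner-free regions (57.4%) was 58.8% when a partner peak had to cover 50% of the narrower of region and peak, 49.2% when no partner was allowed within 1 kb, 41.4% in the upper 50% of the H3K4ox lists, 71.4% with the upper 50% of the H2A.Z and RUVBL2 lists, and 64.7% to 65.2% with 1 H3K4ox replicate left out. The median width (925 bp) was 1170 bp in the upper 50% of H3K4ox, 951 bp with the upper 50% of partners and 744 to 765 bp with 1 replicate left out. The median score percentile (48.7) was 48.8 when replicate peaks had to share 50%, 49.0 with 50% coverage by the partner, 47.9 with the 1 kb limit, 73.5 in the upper 50% of H3K4ox, 50.7 with the upper 50% of partners, 48.5 away from stretches and ends, and 40.1 to 40.2 with 1 replicate left out.

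The median distance to H2A.Z (27.2 kb) was 31.1 kb with the 1 kb limit, 24.2 kb in the upper 50% of H3K4ox, 52.4 kb with the upper 50% of partners and 28.8 to 29.2 kb with 1 replicate left out. That to RUVBL2 (7.36 kb) was 7.08 kb with 50% coverage, 9.41 kb with the 1 kb limit, 6.38 kb in the upper 50% of H3K4ox, 16.9 kb with the upper 50% of partners and 7.81 to 7.94 kb with 1 replicate left out. Shortening a list lengthens distances to it by construction. The correlation of scores (0.54) was 0.548 with 50% coverage, 0.58 in the upper 50% of H3K4ox and 0.56 with the upper 50% of partners, and cannot be had from 1 replicate. The ratio of the highest to the lowest chromosome (3.44) was 3.53 when replicate peaks had to share 50%, 2.92 with 50% coverage, 3.81 with the 1 kb limit, 5.67 in the upper 50% of H3K4ox, 2.65 with the upper 50% of partners, 3.52 away from stretches and ends, and 2.06 to 2.08 with 1 replicate left out. 

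The share of partner-free regions among the best-scoring 1% under 3 kb (80.4%) was 74.7% with the 1 kb limit, 87.2% with the upper 50% of partners, 81.8% away from stretches and ends and 77.1% to 78.8% with 1 replicate left out. The share of the best-scoring partner-free regions near chromosome ends (40.8%) was 39.4% to 40.9% with 1 replicate left out. Where no reason is given, the cause was not tested. Depth is unknown, so the limit of each list cannot be put in reads.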

Other observations

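Peak-free stretches of at least 1 Mb numbered 22. Within 1 Mb of them lay 913 partner-free regions, 0.98% of the class, against 1.92% of the partner-bearing regions. Of the 2241 shared regions there, 40.7% were partner-free.

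By chromosome, the partner-free regions in the best-scoring 1% were most numerous on chromosome 19, with 55, of which 7 lay within 5 Mb of an end. On chromosomes 7 and 8 the end zones held most of them, with 20 of 30 and 21 of 31. Chromosome 21 had 18 among 1342 partner-free regions, of which 13 lay in an end zone. End zones are counted from the outermost peaks, not from the ends of the sequence.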
